A study of Rattus norvegicus with 6 samples.

Results

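The miR-34 and miR-449 family was followed on custom vertebrate microRNA (miRNA) arrays hybridized with kidney RNA of rats treated with aristolochic acid (AA) and of untreated rats. The family was taken as every standard probe whose rat or reporter name, after the species prefix, was miR-34a, miR-34b, miR-34c, miR-449, miR-449a, miR-449b or miR-449c, with or without an arm suffix, and names ending in a star were left out. This gave 28 members among the 5560 miRNA probes of an array, each on 2 spots and each with a target sequence of its own. Of these, 7 carried a rat name and 21 were named only for other species. The members were chosen by measured values, namely the AA-to-control difference of miR-34a on these same arrays. Every AA-to-control value of a member is therefore given as a description, with no test of its own, and supports nothing.

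All animals were male Big Blue rats of the Fisher 344 strain, which carry a bacterial transgene used to count mutations, and were 6 weeks old at the start. Control replicates 13, 14 and 15 were untreated. AA replicates 19, 20 and 21 received the sodium salt of AA by gavage at 10.0 mg/kg (4 ml/kg), 5 times a week for 12 weeks, and kidneys were collected 1 day after dosing ended. AA, made by Aristolochia plants, binds to DNA bases and injures the proximal tubule of the kidney. Each array held RNA of 1 animal from whole kidney tissue, so fewer cells of a type and less RNA per cell cannot be told apart.

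MiRNAs guide silencing complexes to messenger RNAs mainly through the seed, bases 2 to 8 of the mature strand. The miR-34 genes are known as direct transcriptional targets of p53, and their products repress genes of cell cycle progression and survival such as cyclin-dependent kinases and Bcl2. MiR-34a comes from a gene of its own and is the broadly expressed member, miR-34b and miR-34c are cut from one shared transcript, and the miR-449 genes share the seed and are best known from multiciliated epithelia of airway, oviduct and testis.

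RefSeq places the 5 rat hairpins on 3 chromosomes of GRCr8. Mir34a lies at chr5:165815952-165816053 on the plus strand, inside the uncharacterized gene LOC103692514 and between the coding genes H6pd and Gpr157. Mir34c at chr8:60306091-60306167 and Mir34b at chr8:60306609-60306692 lie on the minus strand, 441 bases apart, next to Btg4; Mir34c falls within the span of Hoatz and Mir34b overlaps its edge. Mir449c at chr2:46402375-46402473 and Mir449a at chr2:46403910-46404000 lie on the plus strand, 1436 bases apart, inside LOC134485839 and between Mcidas and Gpx8. The array files name no genome build, and all 10 mature sequences that RefSeq gives for these hairpins had a probe with an identical target.

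The targets of the 5p arms are shown first, because the members share a seed, which stands in capitals, and differ in the bases outside it. Sequences are those of the deposited array files, and the rat ones are identical to RefSeq.
rno-miR-34a: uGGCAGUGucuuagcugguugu
mdo-miR-34a: uGGCAGUGucuuagcugguuguu
rno-miR-34c: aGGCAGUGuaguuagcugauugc
bta-miR-34c: aGGCAGUGuaguuagcugauug
tgu-miR-34c: aGGCAGUGuaguuagcugauugu
gga-miR-34b: cAGGCAGUguaguuagcugauug
rno-miR-34b: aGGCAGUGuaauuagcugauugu
cfa-miR-34b: aGGCAGUGuaauuagcugauug
dre-miR-34b: uAGGCAGUguuguuagcugauug
dre-miR-34c: aGGCAGUGcaguuaguugauuac
rno-miR-449a: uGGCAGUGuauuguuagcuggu
rno-miR-449c-5p: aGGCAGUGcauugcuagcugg

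Of the 28 targets, 21 held GGCAGUG at bases 2 to 8. In 3 more (gga-miR-34b, dre-miR-34b and hsa-miR-449c) an added first base moved the same letters by 1 position, so that bases 2 to 8 read AGGCAGU. The opossum probe mdo-miR-34a held the whole rat miR-34a with 1 extra base at the 3′ end, so both can bind the same rat strand. Counted from 1 at the 5′ end of rno-miR-34c-5p, rno-miR-34b-5p differed by G11A and C23U, tgu-miR-34c by C23U and dre-miR-34b by A10U after its extra first base. The zebrafish dre-miR-34c differed by U9C, C16U and G22A. Probes this close can share target RNA and are not separate measurements of a gene.

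The remaining 4 members were classed as 3p arms, in Mir34b and Mir34c the opposite strand of the hairpin. They are shown because their names hide the strand: hsa-miR-34b carried the 3p sequence of the miR-34b hairpin, although its name has no suffix. The probe mmu-miR-34b-3p has the rat name rno-miR-34b* and entered through its reporter name. In Mir449c the RefSeq 3p sequence starts a few bases after the 5p arm ends, so only its name places it on the opposite strand.
mmu-miR-34b-3p: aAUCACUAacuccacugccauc
hsa-miR-34b: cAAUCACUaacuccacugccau
hsa-miR-34c-3p: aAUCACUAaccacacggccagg
rno-miR-449c-3p: uAGAACUUcgucccaac
In the RefSeq hairpins of Mir34a and Mir34c, shown for the position of both arms, the capitals mark the 5p arm and then the 3p arm.
Mir34a hairpin: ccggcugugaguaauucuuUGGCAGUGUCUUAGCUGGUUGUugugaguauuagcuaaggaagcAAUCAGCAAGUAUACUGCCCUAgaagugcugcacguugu
Mir34c hairpin: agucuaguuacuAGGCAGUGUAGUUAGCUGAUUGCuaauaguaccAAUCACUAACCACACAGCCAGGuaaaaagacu

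The arrays were not equally bright. AA replicate 20 was the dimmest, with a mean miRNA signal of 149 over the empty-spot median against 263 to 484 elsewhere. Over 3 robust SDs of the empty spots, here called well above background, lay 66.8% of the 1132 tested probes on AA replicate 20 and 84.9% to 97.9% on each other array. The liver marker miR-122 had a deposited value of 15191 on AA replicate 20, and the other 5 arrays had 8.17 to 48.5. Differences of tested probes that rest on AA replicate 20 are therefore given with and without it. Of the kidney epithelium markers, 6 of 8 probes reached 32 on all 6 arrays, among them miR-192, miR-194, miR-30a and miR-200b, while miR-204 did so on none. The number of arrays limits the precision of every value below, and nothing states whether replicates were handled together.

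Detection was read in the deposited normalized intensity, where the study's methods set a limit of 32. Of the 28 members, 7 reached it on at least 1 array and entered the fit. These were rno-miR-34a, mdo-miR-34a, rno-miR-34c, gga-miR-34b, tgu-miR-34c, hsa-miR-34c-3p and mmu-miR-34b-3p. Just inside the limit were gga-miR-34b at 32.9, tgu-miR-34c at 33.3 and rno-miR-34c at 40.3, all on AA replicate 19. Just outside were hsa-miR-34b at 31.3 on AA replicate 21 and bta-miR-34c at 27.8 on AA replicate 19. No miR-449 probe reached the limit. The filter admits a probe through the group where it is high, so the 7 tested members are not a sample of the family.

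MiR-34a, the p53 target with a gene of its own, was higher on every AA array. Deposited intensity of rno-miR-34a in replicates 13, 14 and 15 of the control group was 18.1, 15.8 and 16.02, and in replicates 19, 20 and 21 of the AA group it was 424, 267 and 440. For mdo-miR-34a it was 28.6, 23.5 and 23.9 on the control arrays and at least 417 on each AA array. On the normalized log2 scale mdo-miR-34a stood at 6.63, 6.56 and 6.46 in control and at 9.14, 9.01 and 9.07 in AA. The groups did not overlap for either probe.

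**Figure D1:**
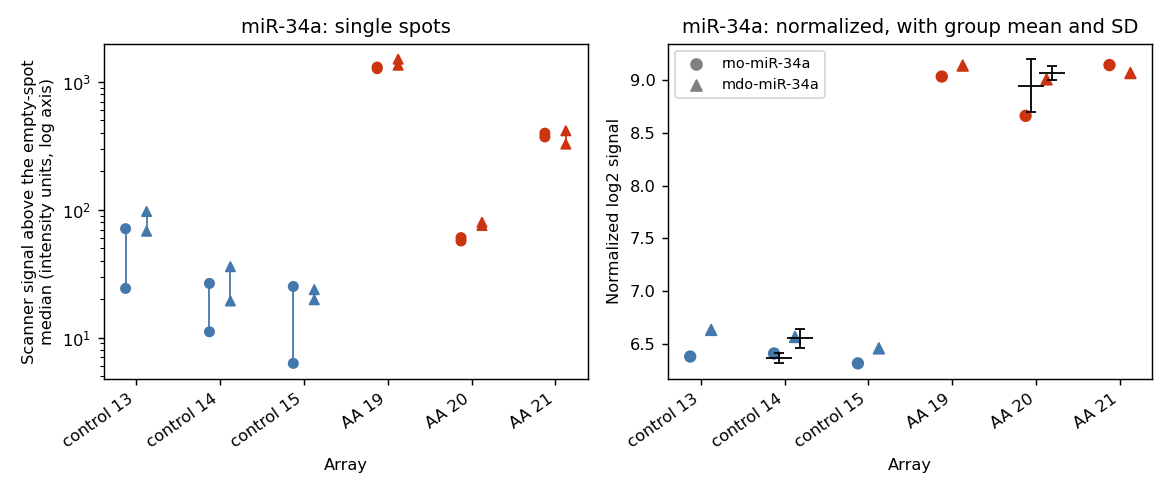
Signal of both miR-34a probes by array, control in blue and AA in red. The left panel gives each spot above the empty-spot median on a log axis, and the right panel gives normalized log2 signal with group mean and SD (n = 3). On the left the AA 20 spots lie within the height of the control 13 spots, and on the right all AA arrays lie above all control arrays.

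On the normalized log2 scale, rno-miR-34a had a mean of 6.37 ± 0.05 (SD, n = 3) in control and 8.95 ± 0.25 (SD, n = 3) in AA. Its difference was 2.58 with a standard error of 0.25, a 5.97-fold higher signal. For mdo-miR-34a the mean was 6.55 ± 0.09 (SD, n = 3) in control and 9.07 ± 0.07 (SD, n = 3) in AA, a difference of 2.52 with a standard error of 0.23. The cross-species variant with the extra 3′ base thus differed between the groups by a log2 value within 1 standard error of that of the rat probe. The offset of the background correction holds dim values up, which shrinks both changes, and with an offset of 16 they were 3.23 and 3.06. On log2 of the deposited values plus 16 they were 3.56 and 3.44. Scaling between arrays moved them as well, to 2.25 and 2.13 without normalization, so their size depends on the processing.

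The scanner signal before normalization shows how much of this rests on scaling between arrays. The 2 spots of rno-miR-34a lay at 24.2 and 71.1 above the empty-spot median on control replicate 13, between 6.28 and 26.5 for control replicates 14 and 15, at 1269 and 1306 on AA replicate 19, at 56.9 and 60.5 on AA replicate 20 and at 371 and 397 on AA replicate 21. AA replicate 20 thus overlapped control replicate 13 before normalization, and AA replicates 19 and 21 overlapped no control array. The rank of the rno-miR-34a signal among the 5560 probes of its array, which needs no scaling, was 1093, 1020 and 1166 on the control arrays and 318, 361 and 307 on the AA arrays. That of mdo-miR-34a was 853, 887 and 991 against 309, 321 and 314. Without AA replicate 20 the differences were 3.09 for rno-miR-34a and 2.89 for mdo-miR-34a.

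In limma with Benjamini-Hochberg adjustment over all 1132 tested probes, 2 probes (0.177%) passed 0.05, and these were the 2 miR-34a members on which the family was chosen, so nothing is read from that count. Neither passed when any of control replicates 13, 14 and 15 or AA replicates 19 and 21 was left out, nor with cyclic loess, median scaling or no normalization, while the difference stayed between 2.25 and 4.62 for rno-miR-34a over all 17 alternatives. Groups did not overlap, with AA higher, for 3 of the 7 tested members, and for 50 of the 1132 tested probes (4.42%); this contrast chose the family, and nothing is read from the comparison. Of the 7, 6 had a higher mean in AA and 1 a lower mean, with changes from -0.09 to 2.58, beside a median of -0.05 over all tested probes.

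**Figure D2:**
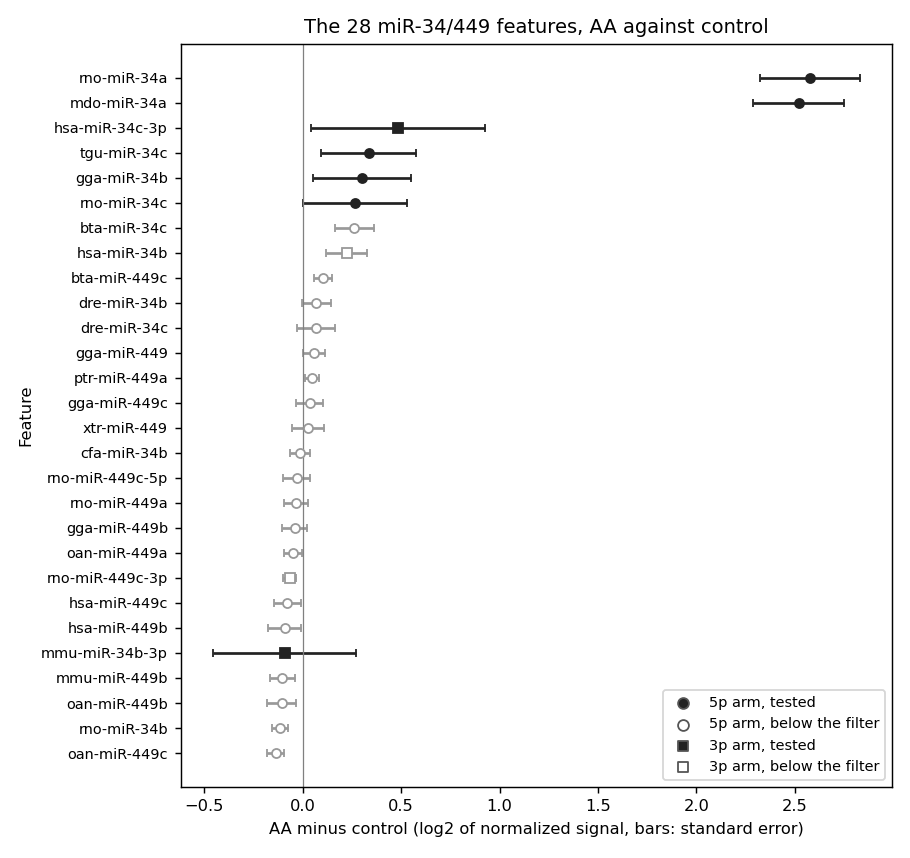
AA minus control in normalized log2 signal for the 28 members, circles for 5p and squares for 3p arms. Filled points entered the fit and carry its standard error, and open points fell below the filter and carry the standard error of a fit over all 5560 probes. The 2 miR-34a probes lie at 2.52 and 2.58 and the other 26 between -0.14 and 0.48.

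MiR-34c, which shares its seed with miR-34a and its transcript with miR-34b, was near background. Deposited intensity of rno-miR-34c was 7.12, 5.39 and 1.64 on the control arrays and 40.3, 0.01 and 27.5 on AA replicates 19, 20 and 21. Of the arrays, 2 of 3 in the AA group and none in the control group had it well above background. This limit differs by array, at 32.2 on control replicate 13, 9.18 on AA replicate 19 and 13.8 on AA replicate 21. The scanner signal of rno-miR-34c above the empty-spot median was 20.8 on control replicate 13, under its limit. On AA replicate 21 it was 18.99, over its limit. The groups overlapped through AA replicate 20. On the normalized log2 scale the difference was 0.27 with a standard error of 0.26, and 0.49 without AA replicate 20. Against the lowest signal that was well above background on the control arrays, the AA mean was 1.11-fold. That mean includes AA replicate 20, where the probe was not well above background, so the value is no lower bound.

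The probes of other species fell into sets by sequence, a grouping made after the values were seen. The 4 miR-34b or miR-34c 5p probes whose target held the first 22 bases of rno-miR-34c-5p (rno-miR-34c, bta-miR-34c, tgu-miR-34c and gga-miR-34b) were each well above background on at least 1 AA array and on no control array. Deposited intensity of bta-miR-34c was 4.56, 1.41 and 0.02 in control and 27.8, 3.64 and 13.3 in AA. For tgu-miR-34c it was 6.89, 0.02 and 0.70 in control and 33.3, 6.94 and 12.3 in AA. For gga-miR-34b it was 7.99, 0.20 and 0.02 in control and 32.9, 2.56 and 18.2 in AA. On AA replicate 19 all 4 were between 10.6 and 15.8 robust SDs above the empty spots, and no control value of these probes passed 2.38. The empty spots of control replicate 13 varied most, so its limit was the highest. There gga-miR-34b had a scanner signal of 24.2 above the empty-spot median and was not counted. On AA replicate 21 it had 16.97 and was counted.

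**Figure D3:**
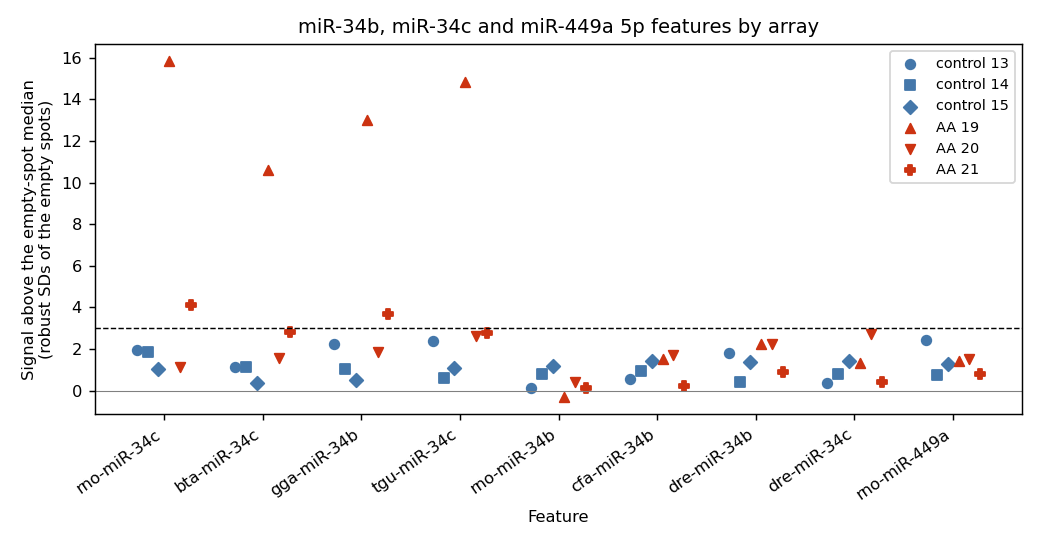
Scanner signal above the empty-spot median, in robust SDs of each array's empty spots, for 9 miR-34b, miR-34c and miR-449a 5p probes on the 6 arrays. The dashed line at 3 marks the limit for well above background. AA 19 stands highest for the 4 probes on the left, and all points of the 5 probes on the right lie under the line.

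The log2 differences of these 4 probes lay between 0.26 and 0.34. That of tgu-miR-34c was 0.34 with a standard error of 0.24 (0.40 without AA replicate 20), and that of gga-miR-34b was 0.30 with a standard error of 0.25 (0.45 without AA replicate 20). Against the lowest signal well above background on the control arrays, their AA means were 1.15-fold and 1.11-fold. For bta-miR-34c, which did not enter the fit, that value was 1.06-fold. Each of these AA means includes arrays where the probe was not well above background, so none is a lower bound. AA and control did not overlap on the normalized scale for tgu-miR-34c and bta-miR-34c. Members at background on every array separated in the same way and in both directions. There bta-miR-449c lay higher on all AA arrays, and rno-miR-34b, oan-miR-449c and rno-miR-449c-3p lay lower. Nothing is therefore read from the lack of overlap. As these 4 probes share 22 bases, they are readings of 1 sequence and not 4 results.

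MiR-34b, the other product of the shared transcript, gave no signal above background from its 5p arm. Deposited intensity of rno-miR-34b was 0.10, 0.28 and 0.61 in control and 0.03, 0.00 and 0.02 in AA, and its signal on AA replicate 19 was -0.32 robust SDs from the empty spots. Within bases 1 to 22 it differs from miR-34c only by G11A. The dog probe cfa-miR-34b, 1 base shorter than rno-miR-34b, stayed between 0.01 and 2.38, dre-miR-34b with A10U between 0.02 and 4.00, and dre-miR-34c between 0.01 and 5.95. None of the 4 was well above background on any array, and differences from -0.11 to 0.07 between values at background have no direction.

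The miR-449 members were at background in both groups. Of 14 5p probes none was well above background on an AA array, and 3 (gga-miR-449b, hsa-miR-449b and mmu-miR-449b) were on 1 control array, replicate 13. Deposited intensity of rno-miR-449a was 6.11, 2.33 and 1.03 in control and 1.67, 0.66 and 0.76 in AA. That of rno-miR-449c-5p was 3.51, 0.73 and 2.77 in control and 0.18, 3.18 and 0.07 in AA. Over all 14 the highest value was 9.07 in control and 7.82 in AA, both on features of the chicken (gga-miR-449b and gga-miR-449c). Aligned without gaps, the closest variants of rno-miR-449a were ptr-miR-449a with G20C, hsa-miR-449b with U1A and U22C and xtr-miR-449 with U1A and U11A. They did not exceed 8.34, nor did bta-miR-449c, oan-miR-449c, hsa-miR-449c and mmu-miR-449b, which lie within 3 bases of a rat target. The targets of gga-miR-449 and oan-miR-449a equal that of rno-miR-449a with 1 base left out. Their highest deposited values were 5.30 and 3.12. The 3p probe rno-miR-449c-3p had at most 1.94 on any array. A level under the filter was not detectable here, which does not show that it was absent.

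The 3p arms of the miR-34b/c hairpins gave signal in both groups, with no shared direction. Deposited intensity of hsa-miR-34c-3p, whose target differs from the rat strand by A16G, was 53.1, 56.4 and 66.1 in control and 37.3, 231 and 57.1 in AA. Only AA replicate 20 was above the control arrays. Its log2 difference was 0.48 with a standard error of 0.44, and -0.01 without AA replicate 20. For mmu-miR-34b-3p, identical to the rat strand, deposited intensity was 17.3, 28.7 and 107 in control and 49.7, 0.01 and 69.3 in AA, and AA replicate 20 was not above background. Its difference was -0.09 with a standard error of 0.36, and 0.25 without AA replicate 20. For hsa-miR-34b, the same strand shifted by 1 base, intensity was 8.59, 20.5 and 28.7 in control and 25.6, 18.6 and 31.3 in AA. The groups overlapped in the deposited values of all 3 probes, and for hsa-miR-34b they did not on the normalized log2 scale.

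Star forms of the same hairpins were outside the family by their names. For the 3p strand of Mir34a, rno-miR-34a* was at background, with deposited intensity of at most 5.06 in control and 3.90 in AA, and so was mmu-miR-34a*, with at most 5.36 and 4.60. The human form hsa-miR-34a*, whose target also lies whole in the rat hairpin, was well above background on 2 control and 2 AA arrays, with at most 26.5 in control and 15.7 in AA, below the limit of 32. The 3p strand of Mir34c, rno-miR-34c*, had 141, 224 and 278 in control and 100.5, 1080 and 199.7 in AA, a log2 difference of 0.32 with a standard error of 0.56, and -0.34 without AA replicate 20. The platypus probe oan-miR-34*, 1 base from it (A9G), had 530.2, 1037 and 519 in control and 201, 7588 and 432 in AA, a log2 difference of 0.54 with a standard error of 0.99, and -0.65 without AA replicate 20. In both, AA replicate 20 was the only AA array above the control arrays. No value above 2.04 was seen for hsa-miR-34b*, whose target is a 5p sequence despite the star, with AGGCAGU at bases 2 to 8. Of the miR-449 star forms, rno-miR-449a* had at most 1.94, and 4 forms of other species reached 32 on control arrays alone, with lower means in AA. The platypus oan-miR-449b* had 11.5, 61.9 and 251 in control and 21.9, 4.94 and 18.2 in AA, a log2 difference of -0.83 with a standard error of 0.49. The highest value of hsa-miR-449c* was 43.9 in control and 8.16 in AA, that of hsa-miR-449b* was 39.4 and 8.17, and that of mmu-miR-449a* was 36.4 and 10.04, each control value on replicate 15. The chicken gga-miR-449b* had a log2 difference of 0.37 with a standard error of 0.45, and -0.11 without AA replicate 20. None of these star forms passed the adjusted threshold in limma.

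Other miRNAs linked to p53 gave no call. Of 14 names in a list from outside the family, 12 had a probe with a rat name and 10 were tested. None passed the adjusted threshold in limma in either direction, beside 0.177% of all tested probes. The smallest adjusted p in limma was 0.88. At an unadjusted 0.05 in limma 1 of the 10 passed, miR-194 with a lower mean in AA, beside 56 of all 1132 tested probes. Of the 10, 7 had a higher and 3 a lower mean in AA, with a median log2 change of 0.05 beside -0.05 over all tested probes. The highest of these 10 was miR-15b at 0.66 with a standard error of 0.29, a relative of miR-16 known to repress Bcl2. Their lowest was miR-194 at -0.82 with a standard error of 0.34, which is made together with miR-192 and marks kidney epithelium. Neither passed the adjusted threshold. Probes named only for other species were left out of the list. Among those in the fit, hsa-miR-215 differed by -1.10 with a standard error of 0.58, hsa-miR-15a by -0.13 and dre-miR-141 by 0.30. These did not pass the adjusted threshold either. No p53 messenger RNA or protein was measured on these arrays.

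Among 177 tested rat probes outside the family, those whose normalized log2 signal followed rno-miR-34a most closely over the 6 arrays were miR-199a-3p, a miRNA of fibroblasts and other mesenchymal cells (Pearson's r 0.971), miR-30c-2* (0.905), miR-187 (0.872), miR-31 (0.850) and miR-200a, an epithelial miRNA (0.830). They were picked for this likeness over arrays that share one normalization, and both groups enter it. Their log2 differences were 0.74, 0.16, 0.48, 0.87 and 0.58, and none passed the adjusted threshold. Without AA replicate 20 they were 0.84, 0.19, 0.60, 0.81 and 0.53.

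**Figure D4:**
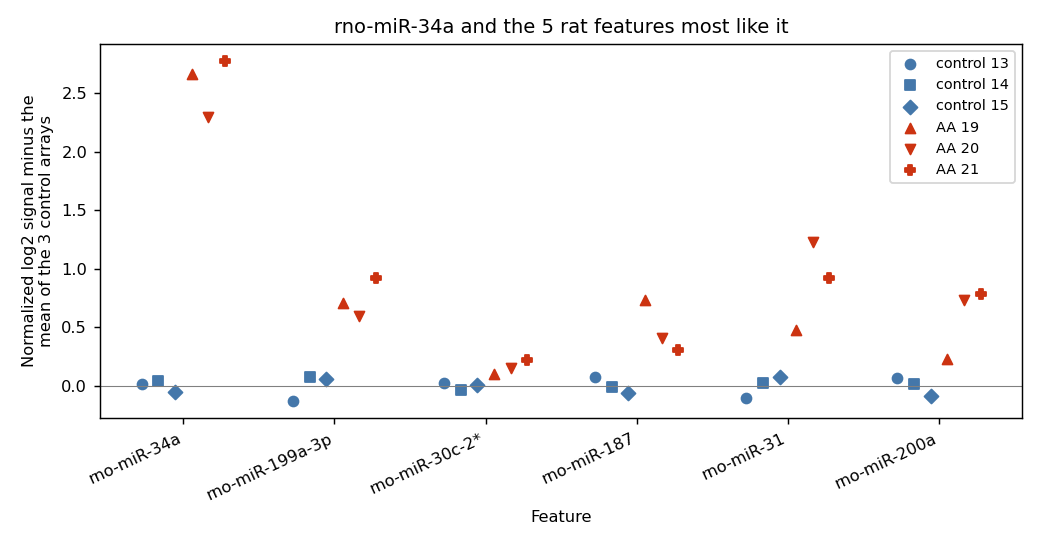
Normalized log2 signal minus the mean of the 3 control arrays for rno-miR-34a and the 5 rat probes most like it, by array. The AA arrays of rno-miR-34a lie between 2.29 and 2.78, and those of the other 5 between 0.10 and 1.23.

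Fibroblast markers stood higher on the AA arrays as a sum, as miR-34a did. The summed deposited intensity of miR-199a-3p, miR-199a-5p and miR-214 was 1270 to 1566 in control and 1931 to 3331 in AA, or 1931 and 2708 without AA replicate 20. All 3 had a higher mean in AA and none passed the adjusted threshold. Unlike miR-34a, miR-199a-5p was lower on AA replicate 20, at 20.5, than on the control arrays, at 38.4 to 42.5. Before normalization the miR-199a-3p signal on AA replicate 20 was 140, below the 330.1 to 1007 of the control arrays. The leukocyte markers summed to 1774 to 2397 in control and 1311 to 1937 in AA, with miR-142-3p, which defines blood cells, at most 4.12 on any array. Of the 2 leukocyte markers in the fit, miR-146a had a lower mean in AA (-0.78) and miR-150 a higher one (0.34). For miR-155, also on the leukocyte list, no rat-named probe was summed. The human probe hsa-miR-155 differed by 0.51 with a standard error of 0.31. Kidney epithelium markers summed to 9797 to 10646 in control and 7455 to 11694 in AA. The lowest of these sums was that of AA replicate 20 and lay under every other array. There miR-30a was 439, against 1980 and 1974 on AA replicates 19 and 21. Red blood cell markers summed to 51.3 to 66.3 and 8.36 to 75.7, muscle markers to 199.99 to 523 and 85.1 to 603, and brain markers to at most 5.73 and 5.03. The muscle sum was mostly miR-206, at 66.1 to 599, as miR-1 was at most 7.79 and miR-133a at most 15.3 on any array. The lowest red blood cell sum and the highest muscle sum were those of AA replicate 20. The part of any of these in the miR-34a difference was not tested.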

How the data were processed

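Kidney small RNA of 3 control and 3 AA rats was tailed, tagged and stained with Cy3 on custom arrays. The authors deposited scanner files with the median pixel intensity of each spot, uncorrected, and a table of normalized intensity made by background subtraction and a LOWESS filter; it still holds values under the study's later filter of 32. Scanner intensity was corrected here with normexp (offset 50), log2-transformed and quantile-normalized, with the mean taken over a probe's 2 spots. Probes at or above 32 on at least 1 array in the deposited table (1132) were compared in R 4.3.3 with limma 3.58.1 (lmFit, eBayes), threshold 0.05 after Benjamini-Hochberg adjustment. The code was tested on simulated data. Targets were aligned to RefSeq GRCr8 mature miRNAs without gaps in Python. Groups came from the labels. The members, gene lists and markers were chosen with earlier results of these data known. Named were tested and rat-named members, those within 3 bases of a rat target, star forms and the 5 probes most like rno-miR-34a. Of the p53-linked miRNAs, the highest and lowest rat-named probe and some probes of other species were named. Probes named for other species were read only as rat RNA bound by them.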

Additional observations from a re-analysis of the deposited data

Results flagged for a closer look

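Some star-form probes of the family, outside it by name, had an AA array above the control arrays in the deposited values. The highest AA array stood at 7.32 times the highest control array for oan-miR-34*, at 3.88 times for rno-miR-34c* and at 2.23 times for gga-miR-449b*. In each case this was AA replicate 20 alone. Before normalization the scanner signal of AA replicate 20 above the empty-spot median was 1083 for oan-miR-34*. This was above control replicates 13 and 15, at 815 and 414, and below control replicate 14, at 1201. For rno-miR-34c* the signal of AA replicate 20 was 160 against 224 to 383 on the control arrays, and for gga-miR-449b* 59.1 against 99.8 to 174. Other star forms stood the other way, with the highest AA array at 0.0873 times the highest control array for oan-miR-449b*, 0.186 times for hsa-miR-449c*, 0.208 times for hsa-miR-449b* and 0.276 times for mmu-miR-449a*.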

How the results depend on the processing

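The AA-to-control contrast chose the family, so nothing is read from calls among the members. Of the 17 alternatives, cyclic loess, median scaling and no normalization left 0 calls over all probes and 0 among the members. The difference of rno-miR-34a was then 2.58, 2.35 and 2.25. At an unadjusted p under 0.05 these 3 settings had 70, 6 and 5 probes. With 1 replicate omitted, calls numbered 0 to 3 over all probes and 0 to 2 among the members, and rno-miR-34a differed by 2.26 to 3.09; calls were kept only without AA replicate 20. Array weights gave 44 calls over all probes; their estimate stopped before its tolerance. The p53-linked list had 0 calls under every alternative. The change of hsa-miR-34c-3p turned to -0.15 with median scaling, -0.24 without normalization and -0.014 without AA replicate 20 (-0.014 to 0.72 over the leave-outs). That of mmu-miR-34b-3p turned to 0.087 with cyclic loess, 0.38 with array weights, 0.13 when control replicate 15 was omitted and 0.25 when AA replicate 20 was (-0.31 to 0.25 over the leave-outs). The other 5 tested members had a higher mean in AA under every alternative run. Detected members numbered 12 in scanner signal minus the empty-spot median, 4 at a limit of 64, and 4 to 7 with 1 replicate left out (4 without AA replicate 19). The median change of all tested probes was -0.23 with median scaling and -0.32 without normalization. Apart from the effect of fewer arrays, the cause of these changes was not tested. No paired analysis was possible because the groups share no replicate numbers. Slide and scan were not fitted as blocks, since labels and files name none. Values of star forms, fibroblast markers and probes like miR-34a without AA replicate 20 were added after seeing the data.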
